A study of Mus musculus with 29 samples.

Results

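The comparison described here is that of CA1 taken 1 h after context plus shock with CA1 of naive mice, across the 15115 genes that the authors' deposited table lists, of 15672 genes listed for any comparison of the series. All listed genes were kept, and 189 exonic bins listed for the same comparison were joined to them by gene. CA1 is the hippocampal field that sends much of the output of the hippocampus to the cortex and is needed for memory of places. In contextual fear conditioning a mouse explores a new chamber and receives a footshock, and it later freezes when put back. The mice were males of strain C56BL/6, as the labels spell it, aged 3 months and housed singly, with no transgene or drug named. In the context plus shock group (4 libraries) the mice met a new context, received a footshock of 0.7 mA and were killed 1 h later. In the context group (5 libraries), which met the context without a shock and was killed at the same time, and in the naive group (5 libraries) the mice were of the same strain, sex and age. The 9 libraries compared here are part of 29 from CA1 and the anterior cingulate cortex (ACC). The labels give the shock group 5 mice, and 4 CA1 libraries of it were analysed here. What handling the naive mice had and the time of day of each collection are not stated in the labels, nor whether each library is a single mouse.

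The table gives a single fold change, p-value and adjusted p-value per gene and no value per library. The spread between mice and the depth of each library are therefore unknown here, and no SD is given. The median base mean, the authors' normalised count averaged over libraries, was 406.91 in the authors' deposited table, which lists no gene under 10. Positive log2 fold changes are higher after context plus shock. A gene was called where the deposited adjusted p was under 0.05. The 95% intervals below were computed from the deposited fold change and p, assuming a Wald test. For genes under 0.05 in absolute log2 fold change, the error was instead scaled from the contrast of context with naive. The median error of a log2 fold change so implied was 0.109.

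The tissue label was checked with marker genes, by setting base means of the CA1 table beside those of the ACC tables, which were normalised separately. Of 14 CA1 markers, 13 had a higher relative level in CA1 than in ACC, with a median log2 ratio of 1.14 in the authors' deposited tables. Fibcd1 stood at 5.13, Spink8 at 4.19 and Lefty1 at 4.15 on that log2 scale in the authors' deposited tables. Markers of cortex and subiculum had a median log2 ratio of -0.37, with 5 of 14 above ACC. The tissue was bulk CA1, in which more cells of a type and more RNA per cell cannot be told apart.

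Neurons answer strong synaptic input with a burst of transcription. Calcium entry and the ERK kinase cascade act on factors already bound to DNA, among them CREB at cyclic AMP response elements and SRF at CArG boxes. Within minutes these switch on the immediate early genes, many of which encode transcription factors, followed by effector genes for synapses, secreted factors and brakes on the same signals. The promoters of a few members are shown for the elements they carry, with 250 bases before and 50 after the start as RefSeq gives it for GRCm38.p6, the assembly of mm10. Capitals mark the core of the cyclic AMP response element, TGACG, or its reverse complement in the 3 promoters of genes that were higher after context plus shock. These are Fos (chr12:85473640-85473939, plus strand), Nr4a1 (chr15:101266596-101266895, plus strand) and Nr4a3 (chr4:48045055-48045354, plus strand).
Fos: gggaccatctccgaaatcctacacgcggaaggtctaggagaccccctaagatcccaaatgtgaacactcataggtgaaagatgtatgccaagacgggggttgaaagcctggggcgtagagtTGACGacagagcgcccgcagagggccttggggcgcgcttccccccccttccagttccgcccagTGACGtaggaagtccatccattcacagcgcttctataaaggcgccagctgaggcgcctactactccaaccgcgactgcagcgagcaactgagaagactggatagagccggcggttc
Nr4a1: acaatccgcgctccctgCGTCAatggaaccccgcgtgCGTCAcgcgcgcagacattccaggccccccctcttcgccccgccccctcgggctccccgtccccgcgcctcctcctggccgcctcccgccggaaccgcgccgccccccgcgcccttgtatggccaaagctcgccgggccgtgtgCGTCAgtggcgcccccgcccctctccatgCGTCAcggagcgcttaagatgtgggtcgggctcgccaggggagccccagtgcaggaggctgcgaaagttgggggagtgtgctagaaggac
Nr4a3: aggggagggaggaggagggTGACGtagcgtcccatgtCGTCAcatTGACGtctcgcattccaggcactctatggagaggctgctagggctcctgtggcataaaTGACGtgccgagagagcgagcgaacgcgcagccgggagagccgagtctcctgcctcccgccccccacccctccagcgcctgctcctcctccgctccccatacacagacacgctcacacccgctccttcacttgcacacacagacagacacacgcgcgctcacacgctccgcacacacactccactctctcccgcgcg
The Fos window holds 2 such cores, and the Nr4a1 and Nr4a3 windows hold 4 each. The core was present on either strand in 20.8% of the 32851 promoters of the RefSeq table. Among the listed genes that could be matched to a promoter, 34.0% of 335 genes called higher, 30.3% of 307 called lower and 30.8% of all 10775 held it. The share among genes called higher was thus close to that among all listed genes. A match of letters is not a bound site.

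In all, 915 of 15115 genes were called (6.05%). Of these, 485 were higher after context plus shock (3.21% of all genes) and 430 were lower (2.84%). After correction for transcript length and GC content, by subtracting a smooth trend, the balance turned, to 392 higher and 430 lower. Most of the changes were small. Of the called genes 166 moved by less than 0.25 on the log2 scale and 477 by 0.25 to 0.5, while 53 changed at least 2-fold, 21 of them higher and 32 lower. Over all genes the median fold change was -0.01 on the log2 scale and the median absolute value 0.1. Of genes with a base mean of at least 50, the highest called fold changes belonged to Egr2, Fos, Fosb, Gm24703, Egr1, Homer1, Nr4a3, Ston2, Nr4a1 and Egr3. The lowest included those of Hif3a, Mir5105, Gm15564, Gm129, Plin4, Vill, Dbp, Cpne9 and Cldn1. The smallest p among higher genes were those of Fosb, Nr4a3, Egr2, Homer1 and Dusp6, and among lower genes those of Dbp, Hif3a, Gm129, Nr1d2 and Gpcpd1.

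**Figure D1:**
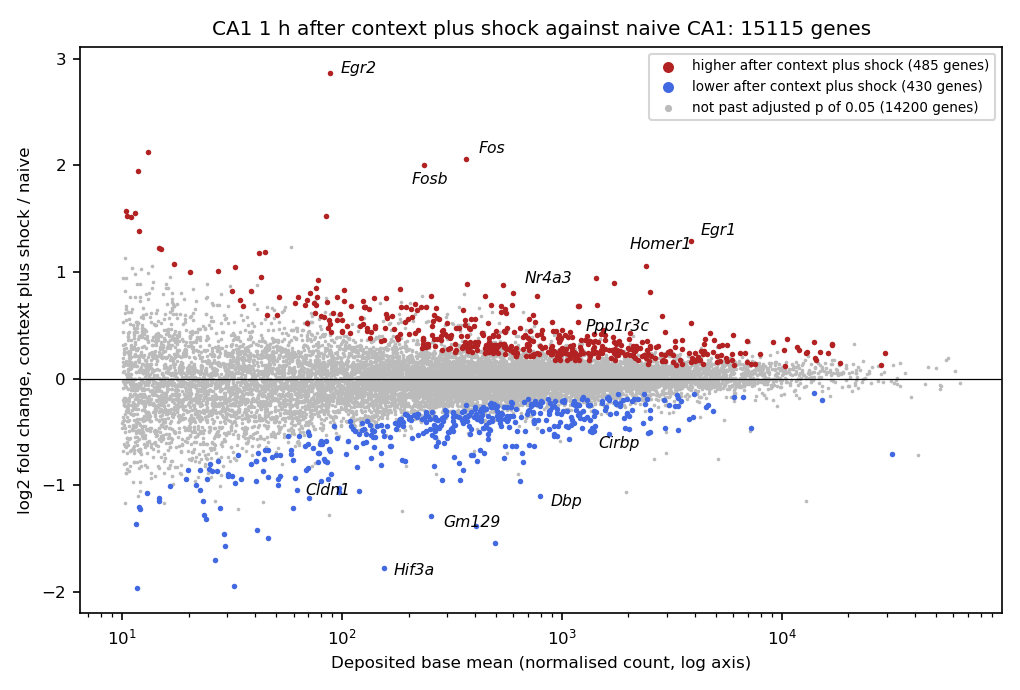
Deposited log2 fold change (context plus shock over naive) of each of 15115 genes against its base mean on a log axis. Red points are the 485 genes called higher, blue points the 430 called lower and grey points the rest; Egr2, Fos and Fosb stand above the other named genes at 2.87, 2.06 and 2.00, and Hif3a lies lowest of them at -1.78.

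The immediate early transcription factors formed the top of the table. Egr2 (chromosome 10, 67535475 to 67542188, plus strand, mm10), a zinc finger factor, was 7.31-fold higher after context plus shock than in naive CA1 in the authors' deposited table, a log2 fold change of 2.87 (95% interval 2.44 to 3.30, adjusted p = 3.93e-36). Its relative Egr1 was at 1.29 in the authors' deposited table (interval 1.06 to 1.52, adjusted p = 8.03e-26), on a base mean of 3835. Egr3 passed narrowly at 0.89 in the authors' deposited table (interval 0.31 to 1.47, adjusted p = 0.0458), and Egr4 at 0.78 did not (adjusted p = 0.0885). After that correction Egr3 missed the threshold (adjusted p = 0.0570). Nab2, a corepressor that binds Egr proteins and limits their action, rose by 0.41 per the authors' deposited table (adjusted p = 0.000121), whereas Nab1 was at 0.01 (adjusted p = 0.962). Of 6 measured Egr and Nab genes 4 were higher and none lower, with a median of 0.835 on the log2 scale, beside -0.01 over all genes.

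Fos and Fosb encode subunits of the dimeric factor AP-1. Fosb (chromosome 7, 19302721 to 19310045, minus strand) stood 4.00-fold above naive CA1 in the authors' deposited table (log2 2.00, interval 1.72 to 2.28, adjusted p = 1.74e-39). The interval of Fos (chromosome 12, 85473890 to 85477273, plus strand) was wider, with 4.17-fold more RNA in the authors' deposited table (log2 2.06, interval 1.49 to 2.63, adjusted p = 1.12e-09). Fosl2, a Fos relative, was at 0.46 (adjusted p = 5.80e-05) and Mafk, a small Maf protein that pairs with other basic leucine zipper factors, at 0.36 (adjusted p = 0.0263) per the authors' deposited table. The partner Jun was at 0.01 with an interval of -0.30 to 0.32 per the authors' deposited table (adjusted p = 0.964). Of 12 measured AP-1 genes 4 were higher and none lower (median 0.38). The wide intervals of Atf3, Maff and Junb, with values of 0.43, 0.40 and 0.40 in the authors' deposited table, all included 0.

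The Nr4a orphan nuclear receptors rose together, while Npas4 went the other way. Nr4a3 (chromosome 4, 48045153 to 48086447, plus strand) was at 0.94 in the authors' deposited table (interval 0.81 to 1.07, adjusted p = 1.74e-39). Nr4a1 was at 0.90 (interval 0.69 to 1.11, adjusted p = 2.11e-14) and Nr4a2 at 0.31 (interval 0.16 to 0.46, adjusted p = 0.00395) per the authors' deposited table. Arc, whose protein drives removal of AMPA receptors from synapses, was at 0.81 in the authors' deposited table (interval 0.32 to 1.30, adjusted p = 0.0258). Npas4 (chromosome 19, 4984355 to 4989971, minus strand), a factor induced selectively by calcium entry, was 1.43-fold lower in the authors' deposited table, at -0.52 on the log2 scale (interval -0.85 to -0.19, adjusted p = 0.0346). Its base mean was 119, against 2507 for Arc, and both adjusted p lay near the threshold. A further 47 rapid response regulators had a median of 0.07, with 10 higher and 1 lower. Among them were Nfil3 at 0.84, Cdkn1a, which encodes a cell cycle inhibitor, at 0.70, and Midn at 0.53 per the authors' deposited table (adjusted p between 2.86e-10 and 1.53e-07). Klf6, a zinc finger factor, was the member called lower, at -0.39 per the authors' deposited table (adjusted p = 0.00111).

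Several brakes on the ERK cascade were called higher. Dusp6 (chromosome 10, 99263231 to 99267488), a cytoplasmic phosphatase of ERK, was at 0.69 in the authors' deposited table (interval 0.58 to 0.80, adjusted p = 1.06e-29). The nuclear phosphatases Dusp5 and Dusp4 were at 0.63 (adjusted p = 7.37e-05) and 0.56 (adjusted p = 1.04e-07) per the authors' deposited table. Spred2, which holds back Raf activation, was at 0.27 per the authors' deposited table (adjusted p = 0.000169). Of 16 measured phosphatase and Sprouty genes 6 were higher and none lower, most did not pass, and the median was 0.065. Dusp1 was at 0.06 with an interval of -0.16 to 0.28 in the authors' deposited table.

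**Figure D2:**
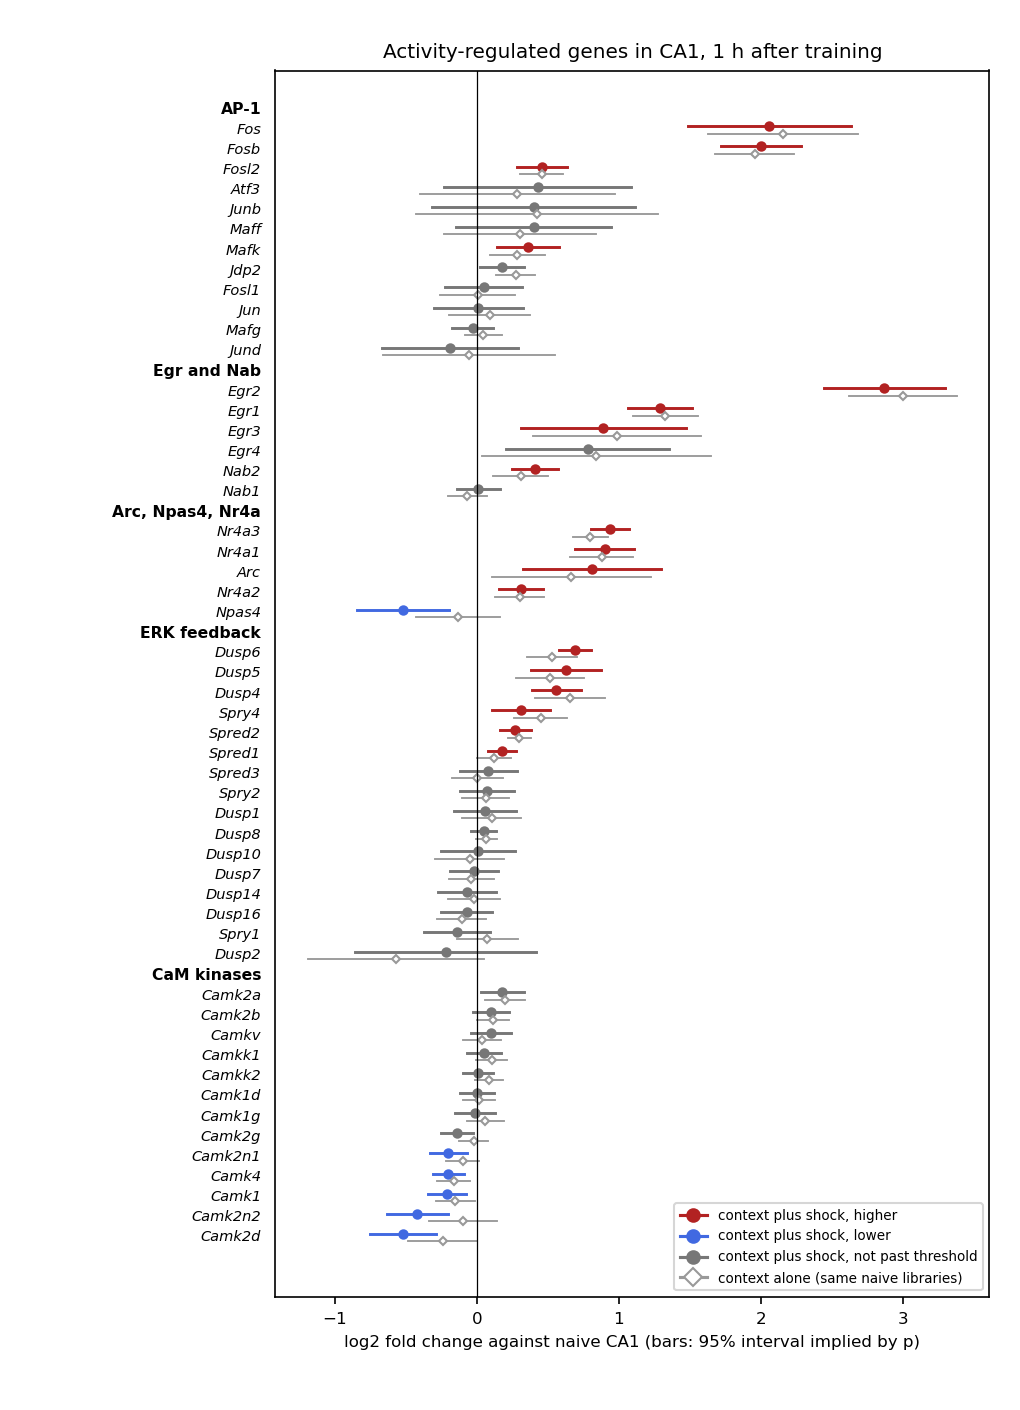
Log2 fold changes with 95% intervals implied by the deposited p for all measured members of 5 gene lists. Filled circles are context plus shock (red higher, blue lower, grey not past the threshold) and open diamonds below them are context alone, both against the same naive libraries; Fos, Fosb and Egr2 stand farthest right at 2.06, 2.00 and 2.87, and the called members of the kinase list lie left of 0, with Camk2d at -0.52.

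Secreted and synaptic effectors were also among the genes called higher. Bdnf (chromosome 2, 109674700 to 109727007), the neurotrophin that strengthens synapses through the receptor TrkB, was 1.37-fold above naive CA1 in the authors' deposited table (log2 0.45, interval 0.28 to 0.62, adjusted p = 2.67e-05). Nptx2 and Nptx1, secreted pentraxins that gather AMPA receptors, were at 0.62 (adjusted p = 0.000825) and 0.32 (adjusted p = 0.000593) per the authors' deposited table. Scg2, which encodes a secretory granule protein, was at 0.36 per the authors' deposited table (adjusted p = 0.000269). Of 23 measured secreted factors and Trk receptors 6 were higher and none lower (median 0.21). Homer1 (chromosome 13, 93303757 to 93404129), a scaffold that links group I glutamate receptors to internal calcium stores, was 2.08-fold above naive CA1 in the authors' deposited table (log2 1.06, interval 0.90 to 1.22, adjusted p = 1.47e-35). The list of 28 postsynaptic scaffold genes had a median of 0.015, with 4 higher, Homer1 included, and 1 lower. Dlgap2 was at 0.48, Dlg4, the scaffold PSD-95, at 0.19 and Dlg3 at 0.18 per the authors' deposited table (adjusted p between 0.0201 and 0.0473). Dlg3 and Dlg4 missed the threshold after correction for length and GC (adjusted p = 0.0778 and 0.108). Nlgn3, a neuroligin of the postsynaptic membrane, fell by 0.31 per the authors' deposited table (adjusted p = 0.00703). In the CREB family and its coactivators, 2 of 16 were called: Crem, which gives rise to a rapidly induced repressor, at 0.64 (adjusted p = 9.80e-10), and the coactivator Crtc3 at 0.27 (adjusted p = 0.0104) per the authors' deposited table. Creb1 itself was at 0.12 with an interval of 0.01 to 0.23 per the authors' deposited table (adjusted p = 0.234).

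Genes for calmodulin-dependent kinases and their inhibitors were called in the opposite direction. Of 13 measured, 5 were lower and none higher, with a median of -0.01. Camk2d (chromosome 3, 126596302 to 126844913), the delta subunit of the kinase CaMKII, was 1.43-fold lower in the authors' deposited table (log2 -0.52, interval -0.75 to -0.29, adjusted p = 0.000744). Camk2n2, which encodes an inhibitor of CaMKII, was at -0.42 (adjusted p = 0.00514), and Camk2n1, another inhibitor, at -0.20 (adjusted p = 0.0457) per the authors' deposited table. The upstream-activated kinases Camk1 and Camk4 were at -0.21 (adjusted p = 0.0387) and -0.20 (adjusted p = 0.0123) per the authors' deposited table. Camk2a, the main alpha subunit of excitatory neurons, was at 0.18 with an interval of 0.03 to 0.33 per the authors' deposited table (adjusted p = 0.152), so the called members do not speak for the whole list.

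Several of the strongest falls were in genes of the circadian clock. The clock is a loop in which ARNTL and CLOCK, at E-boxes, drive the Per, Cry, Nr1d and Ciart repressors and the D-box factors Dbp, Tef and Hlf, and the NR1D proteins in turn repress Arntl. Dbp (chromosome 7, 45705088 to 45710155) was 2.14-fold lower after context plus shock in the authors' deposited table (log2 -1.10, interval -1.26 to -0.94, adjusted p = 1.10e-35). Gm129 (Ciart; chromosome 3, 95878503 to 95882251, minus strand), a repressor of ARNTL and CLOCK, was 2.45-fold lower in the authors' deposited table (log2 -1.29, interval -1.55 to -1.03, adjusted p = 2.37e-19). Its promoter window (chr3:95882179-95882478, minus strand, GRCm38.p6, RefSeq) is shown because it holds 3 E-boxes of the sequence CACGTG, in capitals.
Gm129: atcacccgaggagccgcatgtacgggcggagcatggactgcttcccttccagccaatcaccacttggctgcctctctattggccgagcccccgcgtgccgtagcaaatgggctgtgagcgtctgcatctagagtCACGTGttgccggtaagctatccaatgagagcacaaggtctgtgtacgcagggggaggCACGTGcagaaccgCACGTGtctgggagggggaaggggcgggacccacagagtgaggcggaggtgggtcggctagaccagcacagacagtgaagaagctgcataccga
That E-box, the same on both strands, was found in 7.15% of all promoters of the RefSeq table, in 11.1% of those of genes called lower, in 11.6% of those of genes called higher and in 9.89% of those of all listed genes. The D-box TTATGTAA, on either strand, was found in 7 of 307 promoters of genes called lower (2.28%), in 1 of 335 of genes called higher (0.299%) and in 60 of 10775 of all listed genes (0.557%). Per3 was a member with 2 D-boxes in its window.

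Within the loop members of both roles were called. The activator gene Arntl rose by 0.56 in the authors' deposited table (interval 0.40 to 0.72, adjusted p = 8.76e-09), and Clock, at 0.27, did not pass. Among repressors, Per3 fell by 0.78 (adjusted p = 4.11e-09), Cry1 by 0.50 (adjusted p = 0.000131) and Nr1d2 by 0.47 (adjusted p = 3.06e-10) per the authors' deposited table. Per1, which is also an immediate early gene, rose by 0.34 per the authors' deposited table (adjusted p = 0.0116). Per2 was at -0.17 and Nr1d1 at -0.19 in the authors' deposited table, and neither passed. Rorb, a nuclear receptor that activates Arntl, was at -0.24 per the authors' deposited table (adjusted p = 0.0394). In the output list, Tef was at -0.17, Hlf at -0.25, Usp2 at -0.37 and Bhlhe41 at -0.44 per the authors' deposited table (adjusted p between 3.21e-09 and 0.0245). Nfil3, a repressor that competes with Dbp for D-boxes, and Bhlhe40, a repressor at E-boxes, were higher, at 0.84 and 0.52 in the authors' deposited table. Of 17 core clock genes 2 were higher and 4 lower (median -0.09), and of 10 output genes 2 were higher and 6 lower (median -0.21).

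Genes known to respond to glucocorticoids, the adrenal hormones released under stress, were called in both directions. Of 26 measured, 6 were higher and 5 lower, with a median of -0.08. Hif3a (chromosome 7, 17031507 to 17062427, minus strand), a member of the hypoxia-inducible factor family, was 3.43-fold lower in the authors' deposited table (log2 -1.78, interval -2.05 to -1.51, adjusted p = 1.38e-33). Plin4, a lipid droplet protein, was at -1.21 (adjusted p = 0.00104), Pla2g3, a secreted phospholipase, at -0.76 (adjusted p = 0.00110) and Tsc22d3, known as GILZ, at -0.33 (adjusted p = 3.99e-05) per the authors' deposited table. Higher members were Cdkn1a at 0.70, Errfi1, a feedback inhibitor of the EGF receptor, at 0.46, and Nr3c2, the mineralocorticoid receptor, at 0.44 per the authors' deposited table (adjusted p between 5.34e-14 and 1.53e-07). The known targets Fkbp5, at -0.10 (interval -0.27 to 0.07), and Sgk1, at -0.27 in the authors' deposited table, did not pass, whereas the targets Tsc22d3 and Per1 did, in opposite directions. The receptor gene itself, Nr3c1, was at 0.15 with an interval of 0.02 to 0.28 in the authors' deposited table. Several members are shared with other lists: Per1, Cdkn1a and Errfi1 are also rapid response genes.

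**Figure D3:**
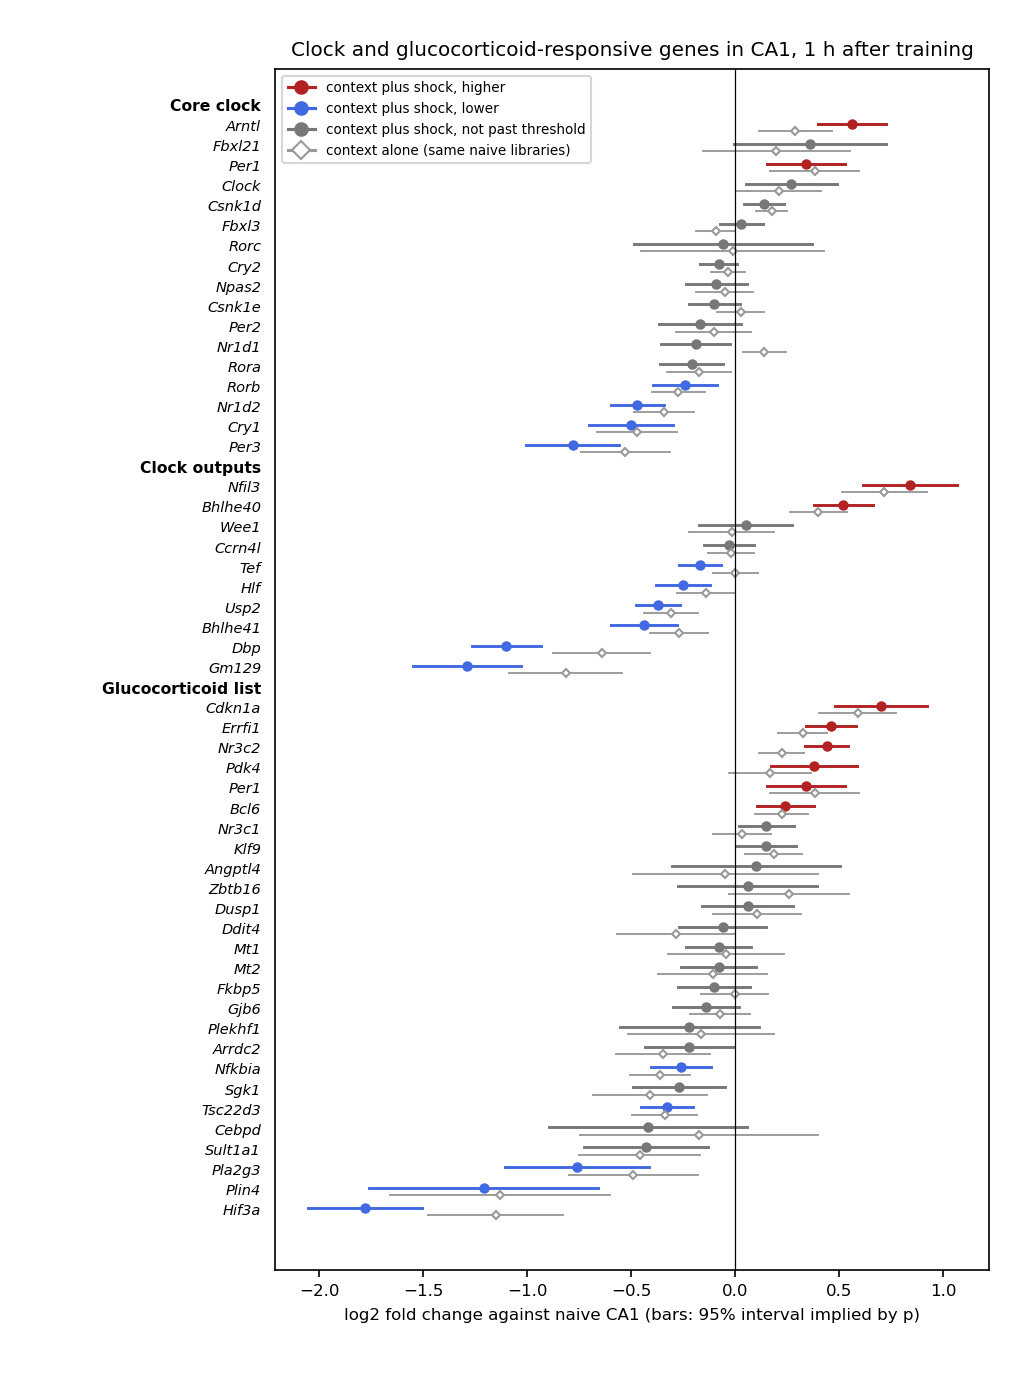
Log2 fold changes with 95% intervals implied by the deposited p for all measured core clock, clock output and glucocorticoid-responsive genes, drawn as in the plot of activity-regulated genes. The filled circles of Hif3a (-1.78), Gm129 (-1.29) and Dbp (-1.10) lie left of the open diamonds of context alone (-1.15, -0.81 and -0.64), and that of Arntl (0.56) lies right of its diamond (0.29). None of these differences passed adjustment, and Tsc22d3 and Cry1 were nearly alike in both.

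Among genes of blood vessel cells, all those called were higher, and most did not pass. Of 29 endothelial and blood-brain barrier genes 9 were higher, none lower and 20 did not pass, with a median of 0.23 and a range of -0.27 to 0.88. Cldn5 (chromosome 16, 18776847 to 18778260), a tight junction protein of brain endothelium, was 1.84-fold above naive CA1 in the authors' deposited table (log2 0.88, interval 0.69 to 1.07, adjusted p = 6.80e-17). The VEGF receptor genes Kdr and Flt1 were at 0.60 and 0.53, the adhesion gene Pecam1 at 0.56 and the angiopoietin receptor gene Tek at 0.38 per the authors' deposited table (adjusted p between 4.91e-08 and 0.0115). Of 14 pericyte and smooth muscle genes 3 were higher, none lower and 11 did not pass (median 0.26, range -0.17 to 0.78). The called genes were the contractile genes Acta2 at 0.78 (adjusted p = 0.00126) and Myh11 at 0.67 (adjusted p = 1.94e-05), and Pdgfrb, a pericyte receptor, at 0.26 (adjusted p = 0.0348) per the authors' deposited table. Pdgfrb missed the threshold after correction for length and GC (adjusted p = 0.0971). Blood markers, set beside them, had none of 6 called (1 at an unadjusted p under 0.05) and a median of -0.145. Choroid plexus and meningeal markers had 1 of 11 called higher (Kl, at 0.42, adjusted p = 0.00117) per the authors' deposited table. Whether dissection or vessel content differed between the groups was not tested.

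All called chaperone genes of the cytosolic and endoplasmic reticulum lists were higher, and most members did not pass. Of 25 cytosolic heat shock genes 10 were higher and 15 did not pass, with a median of 0.17 and a range of -0.13 to 0.59. Hsph1 (chromosome 5, 149614287 to 149636376, minus strand), which helps HSP70 exchange its nucleotide, was at 0.41 in the authors' deposited table (interval 0.31 to 0.51, adjusted p = 1.17e-13). Dnajb5, a cochaperone, was at 0.59, Hspa8, the constitutive HSP70, at 0.37 and Stip1, which bridges HSP70 and HSP90, at 0.30 per the authors' deposited table (adjusted p between 3.06e-10 and 5.13e-06). In the endoplasmic reticulum 3 of 19 chaperone genes were higher and 16 did not pass (median 0.09, range -0.18 to 0.27): Pdia6 at 0.27 (adjusted p = 0.00187), Hspa5, known as BiP, at 0.26 (adjusted p = 0.00633) and Calr at 0.24 (adjusted p = 0.0125) per the authors' deposited table. None of 27 genes of the integrated stress response and tRNA charging was called, and 2 had an unadjusted p under 0.05.

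Among metabolic genes, 5 of 26 in cholesterol synthesis and uptake were higher and none lower (median 0.075). Cyp51, an enzyme of sterol synthesis, was at 0.34 (adjusted p = 0.000153) per the authors' deposited table. Hsd17b7 at 0.32, Sc4mol at 0.29 and Mvd at 0.34, enzymes of the same pathway, also passed per the authors' deposited table (adjusted p between 0.00155 and 0.00269). In glycogen metabolism the leading gene was Ppp1r3c (chromosome 19, 36731737 to 36736653, minus strand), which brings protein phosphatase 1 to glycogen and so favours glycogen synthesis. It was 1.60-fold above naive CA1 in the authors' deposited table (log2 0.68, interval 0.55 to 0.81, adjusted p = 5.06e-23). Gbe1, the glycogen branching enzyme, was lower, at -0.36 per the authors' deposited table (adjusted p = 0.0258), and the other 15 of 17 glycogen genes did not pass. Nuclear genes of the respiratory chain had 2 of 73 called, Atp5k at 0.31 and Atp5j2 at 0.28 in the authors' deposited table, and a median of 0.06; Atp5k missed the threshold after the same correction (adjusted p = 0.0967). Cytosolic ribosomal protein genes had 2 of 77 called, Rpl9 at -0.44 and Rpl10a at -0.43 in the authors' deposited table, shares near or below the background of all genes.

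Most ion channel and receptor genes did not pass, though some of these lists had more calls than the 6.05% over all genes. The shares called were 12.5% for potassium channels, 17.9% for sodium and calcium channels and 14.3% for ionotropic glutamate receptors. For GABA-A receptors the share was 7.69% and for vesicle and active zone genes 3.33%, near or below that of all genes. These shares were not tested. Of 56 potassium channel genes 6 were higher and 1 lower (median 0.015); after correction for length and GC 4 were higher and 3 lower. Kcnj6, a channel opened by G proteins, was at 0.67 (adjusted p = 3.22e-05), Kcnq3, a subunit of the M current, at 0.66 (adjusted p = 0.000832) and Kcnab2, an auxiliary subunit, at 0.24 (adjusted p = 0.00344) per the authors' deposited table. Kcnj2, an inward rectifier, was the member called lower, at -0.76 per the authors' deposited table (adjusted p = 0.000121). Of 28 sodium, calcium and related channel genes 5 were higher, among them Scn3b at 0.25 and Scn2b at 0.19, both auxiliary sodium channel subunits, per the authors' deposited table (adjusted p = 0.00841 and 0.00176). Among 21 ionotropic glutamate receptor genes, Gria1, which encodes an AMPA receptor subunit, was at 0.33 (adjusted p = 0.000740), the NMDA receptor subunit Grin2a at 0.68 (adjusted p = 0.0240) and the auxiliary subunit Shisa6 at 0.25 (adjusted p = 0.0217) in the authors' deposited table; none was lower. The GABA-A receptor subunit Gabrb1 was at 0.40 (adjusted p = 0.000391) and was the 1 called of 13 in the authors' deposited table. Grm3 at 0.18 was the 1 called of 7 metabotropic glutamate receptors, and Syt11 at 0.15 the 1 called of 30 vesicle and active zone genes in the authors' deposited table. Shisa6 and Syt11 missed the threshold after correction for length and GC (adjusted p = 0.0805 and 0.0625).

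Genes of RNA processing were called mostly in the lower direction. Of 62 splicing factors and RNA-binding proteins 10 were lower and 2 higher, with a median of -0.085. Cirbp, an RNA-binding protein induced by cold, was at -0.49 (adjusted p = 8.02e-08) per the authors' deposited table. Rbm3, the other well-known cold-induced RNA-binding protein, was looked up after its value was seen and was at -0.46 per the authors' deposited table (adjusted p = 0.000634). Hnrpdl was at -0.30, Srsf2 at -0.37 and Nova1, a neuronal splicing regulator, at -0.34 per the authors' deposited table (adjusted p between 1.73e-09 and 0.000189). The members called higher were Khdrbs3 at 0.33 and Sfpq at 0.29 per the authors' deposited table (adjusted p = 7.44e-05 and 7.44e-06). Among chromatin genes, 6 of 36 histone methylation enzymes were called. Of these Jhdm1d at 0.31, Prdm2 at 0.29, Kdm2a at 0.28 and Setd7 at 0.22 were higher, and Ezh2, the catalytic subunit of PRC2, at -0.47 and Suv39h1 at -0.23 lower in the authors' deposited table. After correction for length and GC Prdm2, Kdm2a and Setd7 missed the threshold (adjusted p between 0.0625 and 0.122). Of 27 histone acetylation enzymes Hdac10 (-0.33) and Hdac3 (-0.19) were lower in the authors' deposited table, and of 19 DNA methylation genes Tet2, which oxidises methylcytosine, was lower at -0.41 (adjusted p = 0.00125). The shares called in these 2 lists, 7.41% and 5.26%, were near the 6.05% over all genes.

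**Figure D4:**
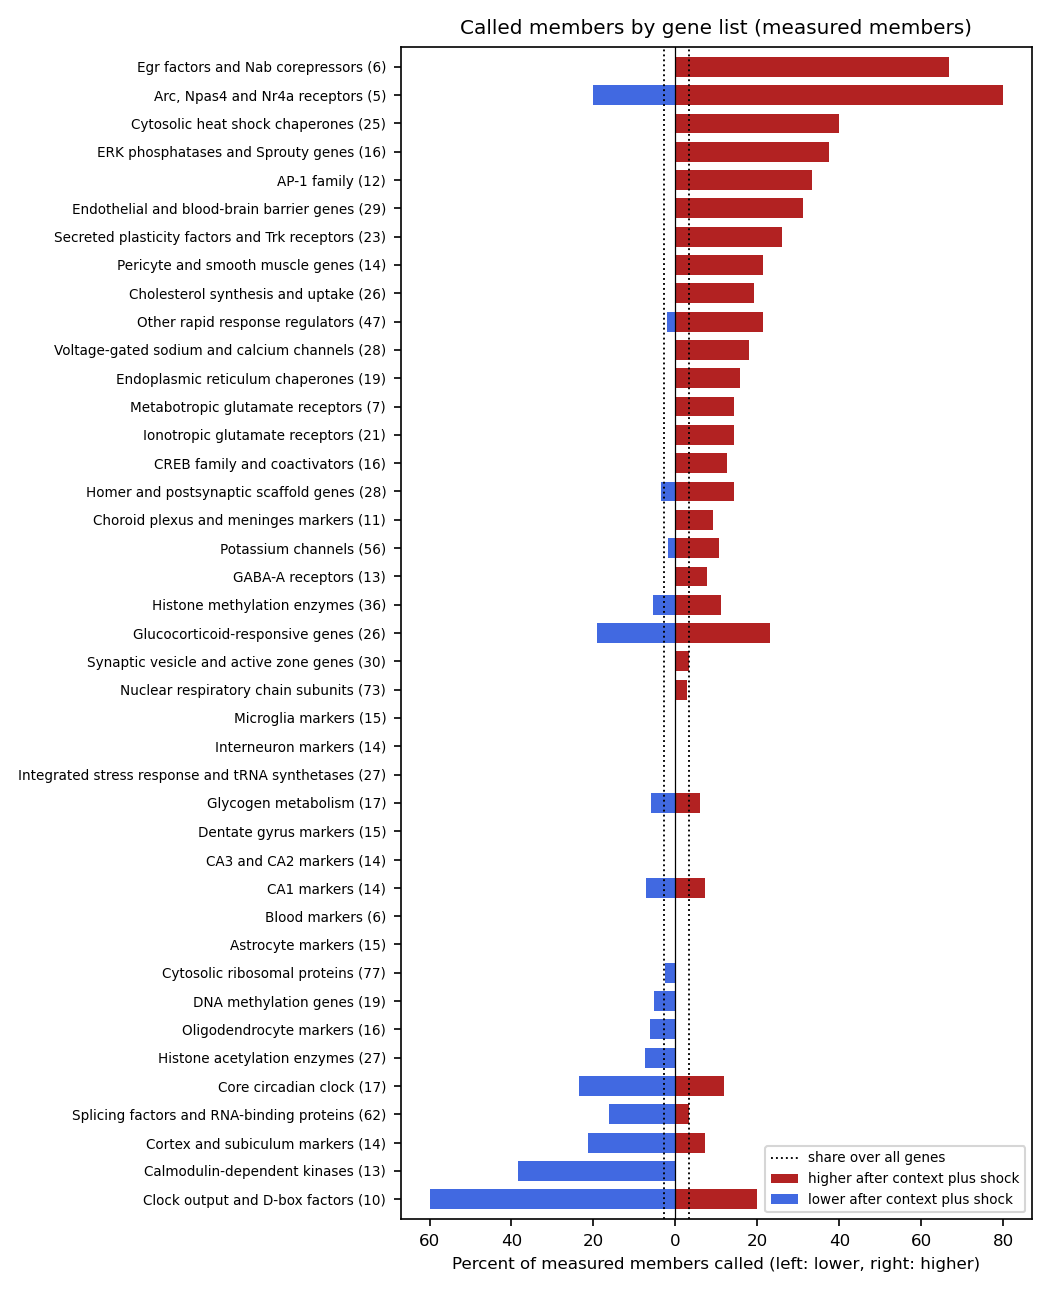
Percent of the measured members of each of 41 gene lists called higher (right) or lower (left) after context plus shock, with the number of measured members in brackets. Dotted lines mark the shares over all genes, 3.21% higher and 2.84% lower; the early gene and chaperone lists stand to the right, and the clock output and kinase lists to the left.

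Markers of neighbouring fields and other cells were read beside these values. CA1 markers had 1 of 14 higher, Spink8 at 0.48 (adjusted p = 0.00241), and 1 lower in the authors' deposited table. Of 14 markers of cortex and subiculum, Cplx3 at -0.73 (adjusted p = 2.61e-05), Cux2 at -0.63 (adjusted p = 0.000163) and Rorb at -0.24 were lower and Fezf2 at 0.24 (adjusted p = 0.0271) higher in the authors' deposited table. Their median was -0.17 and their range -0.73 to 0.24. At an adjusted p under 0.05 none of 15 dentate gyrus markers was called (median 0.23, range -0.09 to 0.73), nor any of 14 CA3 and CA2 markers (median -0.13, range -0.47 to 0.35); at an unadjusted p under 0.05 there were 1 and 2. Interneuron, astrocyte and microglia markers had no call among 14, 15 and 15 genes, with 4, 1 and 6 at an unadjusted p under 0.05, beside 2819 of all 15115 genes, and oligodendrocyte markers had 1 of 16, Olig2 at -0.30 per the authors' deposited table (adjusted p = 0.0201). The part of dissection borders in the changes of other genes was not tested.

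Calls were also counted by the gene class in the annotation of the files' IDs. Of 14096 protein-coding genes 467 were higher and 396 lower. Of 378 lincRNA genes, which make long RNAs that encode no protein, 2 were higher and 16 lower. A further 4 processed transcripts were higher and 11 lower, of 238. Of 190 antisense genes 2 were higher and 3 lower. The shares called were 6.12% for protein-coding genes, 4.76% for lincRNA genes, 6.30% for processed transcripts and 2.63% for antisense genes. All of these were near or below the 6.05% over all genes. In the small class of 14 miRNA genes 2 were higher and 1 lower, a share of 21.4% that rests on few genes. The called lincRNA genes and processed transcripts were mostly lower, and the called protein-coding genes more often higher, a difference that was not tested. Gm24703 (chromosome 5, 12155104 to 12155174) and Mir5105 (chromosome 5, 146261003 to 146261084), both annotated as miRNA genes, were at 1.53 and -1.54 per the authors' deposited table (adjusted p = 4.89e-06 and 0.0457). Such rows count reads over the locus and are no measure of the mature miRNA.

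Exonic bins, pieces of exons with a p-value each, gave far fewer calls. Whether a bin's value is relative to the rest of its gene is not stated, nor is its scale explained. A lower bin value therefore need not mean less RNA from that bin. The tables list bins with an adjusted p under 0.1, and their adjusted p correspond to 209445 bins tested. Of these 122 were called (0.0582%), 35 higher and 87 lower, in 107 genes or gene groups. The median size of their deposited log2 fold changes was 0.183, and 10 of the 122 were under 0.05. The bins were numbered by the authors and were not mapped to coordinates. Among 104 called bins that lie in a single gene with a gene value, 43 did not share the sign of their gene. Of the 104, 20 were in called genes and 84 were not. These bins lay in 94 distinct genes, of which 16 were among the 915 called genes, beside 6.05% called over all genes; the overlap was not tested.

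Homer1 carried the smallest p of the table. Its locus makes long scaffold forms and, after activity, the short form Homer1a, which lacks the multimerising end and loosens the scaffold. Bin E014 was higher, at 0.82 (adjusted p = 6.86e-20), while bins E025 and E027 were lower, at -0.25 (adjusted p = 1.12e-24) and -0.38 (adjusted p = 8.93e-07), in the authors' deposited table, though the gene as a whole was at 1.06. After context alone the same 3 bins stood at 0.62, -0.26 and -0.47 in the authors' deposited table. In Sphk2, a sphingosine kinase, bin E001 was at -0.46 (adjusted p = 2.89e-09) and bin E003 at 0.13 (adjusted p = 6.98e-06), with the gene at 0.33, in the authors' deposited table. Rasgrf1, a calcium-activated exchange factor for Ras, had bin E005 at 0.25 (adjusted p = 4.52e-12), with the gene at 0.01, in the authors' deposited table. The scaffold gene Dlgap1 had bin E044 at 0.72 (adjusted p = 2.60e-05), with the gene at 0.11, in the authors' deposited table. Tardbp, which encodes the RNA-binding protein TDP-43, had bin E005 at -0.22 (adjusted p = 2.04e-07), and Hnrnpa2b1 had bins E004 and E005 at -0.43 and -0.34, in the authors' deposited table; neither gene was called as a whole. Camk4 bin E011 stood at only -0.03 in the authors' deposited table, where its adjusted p was 7.57e-13. After context alone, against the same naive libraries, that bin was at -0.05 (adjusted p = 0.00104) in the authors' deposited table. How so small a value came with so small a p is not explained.

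First bins, E001, of minus-strand genes made up 22 of the called bins, of which 21 were lower and 1 higher. On the plus strand 1 first bin was called. Were bins numbered by rising coordinate, which the headers do not state, E001 of a minus-strand gene would be its 3′ end. The other 100 called bins were 34 higher and 66 lower. Differences in RNA quality between the groups cannot be checked without values per library, and their part in these bins was not tested.

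**Figure D5:**
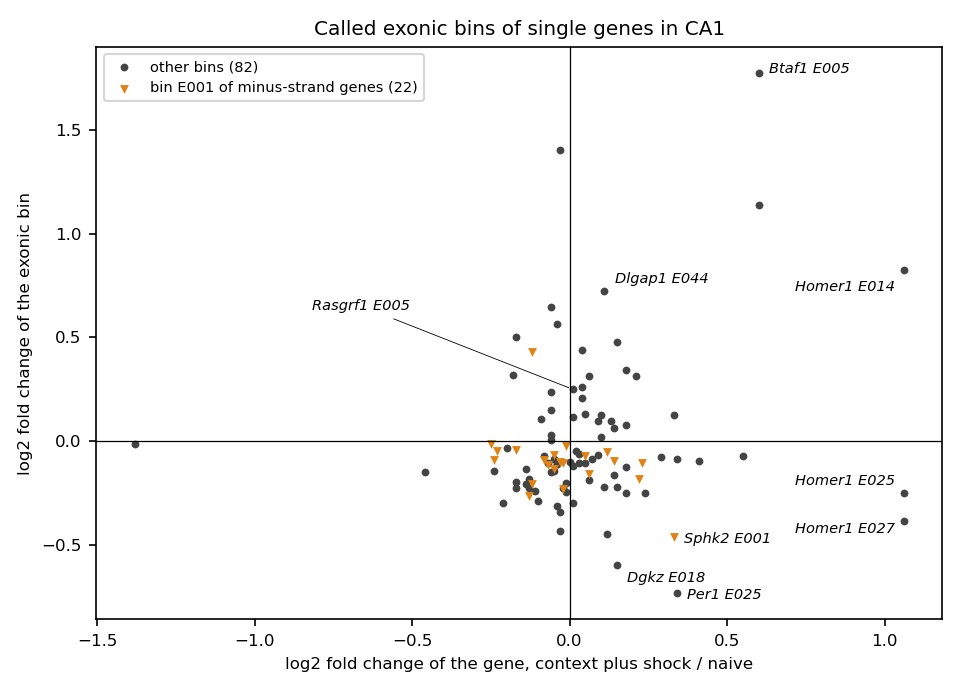
Log2 fold change of each called exonic bin that lies in a single gene (104 bins) against that of its gene, context plus shock over naive. Orange triangles are bins E001 of minus-strand genes and dark points all other bins; the bins of Homer1, whose gene value is 1.06, lie above 0 for E014 and below 0 for E025 and E027.

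The step from context to context plus shock was read from the 2 deposited contrasts, which share the 5 naive libraries, so that errors in those libraries move both alike. The early genes had similar values in each. Egr2 was at 2.87 after context plus shock and 3.00 after context, Fos at 2.06 and 2.15, and Fosb at 2.00 and 1.96 in the authors' deposited tables. The difference of the fold changes was -0.13 for Egr2, -0.09 for Fos and 0.04 for Fosb, with standard errors of 0.292, 0.398 and 0.203, so these data leave room for differences the size of those errors. Over 15034 genes in both tables a single gene passed the test of the difference (0.00665%). This was Ppp1r3c, at 0.68 after context plus shock and 0.25 after context in the authors' deposited tables, a difference of 0.43 with a standard error of 0.0908 (Benjamini-Hochberg adjusted p = 0.0295, normal test on the implied errors). At an unadjusted p under 0.05 there were 151 genes. The test takes the errors as independent, which with shared naive libraries makes it less sensitive.

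Some lists had different numbers of calls in the 2 contrasts, in either direction, and no difference of a member of these lists passed adjustment. The share called over all genes after context was not counted, and the trained groups differed in size (4 libraries against 5 for context). The counts below are therefore no measure of what the shock added to a list. Fewer calls after context plus shock stood in the splicing list (2 higher and 10 lower, against 3 higher and 22 lower after context), among potassium channels (6 higher and 1 lower, against 10 higher and 5 lower) and among endothelial genes (9 higher and none lower, against 13 higher and 1 lower). In the cholesterol list 5 genes were higher after context plus shock, against none higher and 1 lower, Insig1, after context. Insig1, which holds back cholesterol synthesis when sterols are plentiful, was at 0.08 after context plus shock and -0.25 after context in the authors' deposited tables (unadjusted p of the difference = 0.00326). In the kinase list 5 genes were lower after context plus shock and none after context; Camk2d was at -0.52 and -0.24 in the authors' deposited tables, and Camk2n2 at -0.42 and -0.10. Among clock and hormone-responsive genes, some of the values lay lower after context plus shock than after context, while Tsc22d3 (-0.33 and -0.34) and Cry1 (-0.50 and -0.47) were nearly alike in the authors' deposited tables. Dbp was at -1.10 after context plus shock and -0.64 after context in the authors' deposited tables (difference -0.46, unadjusted p = 0.00166), and Hif3a at -1.78 and -1.15 (difference -0.63, unadjusted p = 0.00368). Nr1d1 was at -0.19 after context plus shock and 0.14 after context in the authors' deposited tables (difference -0.33, unadjusted p = 0.000937). Vill, an actin-regulating villin-like gene, was at -1.12 after context plus shock and -0.31 after context in the authors' deposited tables (difference -0.81, unadjusted p = 0.00686). The zinc finger gene Zfp189 was at 0.40 after context plus shock and 0.05 after context in the authors' deposited tables (difference 0.35, unadjusted p = 0.00328). All of these had an adjusted p of 1.00 to 2 decimals for the difference. Npas4, at -0.52 after context plus shock and -0.13 after context in the authors' deposited tables, likewise had a difference that did not pass (-0.39, unadjusted p = 0.0863).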

How the data were processed

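RNA from CA1 was made into TruSeq RNA v2 libraries, per the labels' protocols. Tools named in the submitters' processing notes are STAR 2.3.0e, CASAVA 1.8.2, DESeq2 and SAMtools, and the build is mm10; what each did, the annotation, the strandedness of counting and the tool for exonic bins are not stated there or in the labels. Each gene or bin has a deposited base mean (a normalised count signal), its p-value, raw and adjusted, and a log2 fold change, per the file headers. No values per library were used, so no count model was fitted, contrary to the first choice of the plan, and depth is unknown.

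Rows were joined by gene ID, since 24 names had become dates. The deposited adjusted p-values equal a Benjamini-Hochberg adjustment over the listed genes to within 0.0022. The direction of the fold changes was checked from base means (slope 0.471, r = 0.965 across 15034 genes). For 70 bins the check was made after subtracting the base mean ratio of the gene itself (slope 1.14, r = 0.745). Errors were implied by the log2 fold change over the normal score of its p; 3650 genes under 0.05 on the log2 scale took the context contrast's error times 1.082. Base means of CA1 and ACC were compared after centring on the median of all genes.

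The 41 gene lists (981 entries, 940 distinct genes measured) and the rule for named genes were chosen with earlier results of these data known. Named genes were the 10 highest and 10 lowest called with a base mean of at least 50, the 10 smallest p each way, up to 4 called members of each list each way and its first 4 members, the exonic bins with the 10 smallest p and those in listed genes, and the 6 smallest p each way of the difference from context. A few genes that the rule named are not reported here. Genes named outside that rule were chosen after their values were seen: Camk2n1, Mvd, Jun, Atf3, Maff, Junb, Nab1, Per2, Nr3c1, Lefty1 and Rbm3. Alternatives were a base mean of at least 50, removal of a spline trend (5 knots) on transcript length and GC content (GENCODE M21, 99.13% of genes matched), adjusted p under 0.1 and 0.01, and an absolute log2 fold change of at least 0.25. Only the difference test and the trend removal were run on simulated data, and the outcome is not reported here. There the contrasts were drawn as independent, so the effect of the shared naive libraries was not tested. Python 3.11.15, numpy 2.4.6, scipy 1.17.1, pandas 2.3.3, scikit-learn 1.9.0 and matplotlib 3.10.9 were used.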

Additional observations from a re-analysis of the deposited data

Results flagged for a closer look

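Ppp1r3c, the glycogen-targeting subunit of protein phosphatase 1, was singled out because its fold change differed between training conditions. In the authors' deposited tables it was at 0.68 after context plus shock and 0.25 after context, both against the same naive libraries, a difference of 0.43 (adjusted p = 0.0295 over 15034 genes). Of the alternatives tried, one takes a smaller error and the other tests fewer genes, so neither could have removed the call, and its stability was not tested.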

How the results depend on the processing

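No paired analysis was possible because the deposited tables hold no values per library; for the same reason leaving out each replicate in turn was not run, and a single library that decides a value would not be seen. With a threshold of 0.1 on the adjusted p the genes called were 1404 (730 higher, 674 lower) and with 0.01 they were 435 (237 higher, 198 lower). All 189 listed bins pass at 0.1, of which 65 were higher. A base mean of at least 50, an absolute log2 fold change of at least 0.25 and removal of the length and GC trend kept the counts of called genes within 1.5 times, at 887, 749 and 822. The balance turned, however: with the trend removed 392 genes were higher and 430 lower, and of 898 called genes with a length 761 remained. Of the named genes 11 then missed the threshold (among them Atp5k, Dlg3, Dlg4, Egr3, Kdm2a, Pdgfrb, Prdm2, Setd7, Shisa6 and Syt11) and 3 passed it (Cux1, Hsp90b1 and Naa38), and no called gene among them changed sign. Of the counts of called list members, 8 moved by over 1.5 times with the trend removed, for instance the histone methylation enzymes, with 1 called higher in place of 4, and the potassium channels, with 3 called lower in place of 1; the cause was not tested. For the difference between contrasts, the larger of the 2 errors alone (a smaller error than the combined one) and a base mean of at least 50 (fewer tests) can only ease the call of Ppp1r3c, so they do not bear on its stability.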

Other observations

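Among long non-coding genes, picked here after their values were seen, Ftx, a neighbour of Xist in the X inactivation centre, was at -0.63 after context plus shock per the authors' deposited table (interval -0.90 to -0.36, adjusted p = 0.000542), and at -0.49 after context. AI480526 stood at -0.77 (adjusted p = 0.000720) and Rmst, a transcript known from neuronal differentiation, at -0.52 (adjusted p = 0.0120) in that authors' deposited table. The abundant nuclear transcripts Malat1 and Meg3 had values of -0.75 and -0.72 in the authors' deposited table and did not pass (adjusted p = 0.164 and 0.0937).

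The marker lists that the comparison leaves unnamed were examined for their level in CA1. CA3 and CA2 markers had a median log2 ratio of CA1 to ACC of -0.17, with 6 of 14 above ACC, and dentate gyrus markers 0.225, with 8 of the 14 with an ACC level above ACC, in the authors' deposited tables. Of 2592 genes with a base mean under 50, 68 were called, a smaller share than the 6.05% over all genes. The 68 comprised 47 lower and 21 higher after context plus shock.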
